A study of Mus musculus with 8 samples.

Results

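A set of 10 genes of the Krüppel-like factor (Klf) family were followed in mouse embryonic stem (ES) cells of the line E14Tg2a after transfection with small interfering RNAs (siRNAs) against Tet1. Tet1 encodes a dioxygenase that turns methylated cytosine in DNA into hydroxymethylcytosine. These genes, Klf2, Klf3, Klf4, Klf5, Klf6, Klf7, Klf9, Klf10, Klf13 and Klf16, were taken by symbol from the 15267 genes tested. Each was read by 1 probe set, numbered by the gene's Entrez identifier. The 8 arrays formed 4 groups of 2. Cells were taken 96 h after Tet1 siRNA #1, 96 h after Tet1 siRNA #2, 48 h after Tet1 siRNA #1, or 96 h after a control siRNA that targets firefly luciferase. All groups share the cell line and a transfection, and a 48 h control was not analysed here. Per the series title, the study asked how acute depletion of Tet1 bears on ES cell identity and on Stat3 signalling downstream of the cytokine LIF (leukaemia inhibitory factor). Tet1 expression was not analysed here, which leaves the labels without that check.

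Klf proteins are transcription factors that bind GC-rich and CACCC-containing DNA through a shared set of zinc fingers at the C-terminus. Klf2, Klf4 and Klf5 are known to sustain self-renewal of mouse ES cells with overlapping targets, and Klf4 transcription is known to respond to LIF through Stat3. Other members act differently through their N-terminal parts: Klf3 represses through the corepressor CtBP, Klf9, Klf10, Klf13 and Klf16 carry a Sin3-binding motif, and Klf6 and Klf7 are mostly described as activators.

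All values are RMA values on the log2 scale, and levels are compared only within a gene. The Klf values lay between 8.05 and 12.4 on the 8 arrays. Of 8 ES cell markers, Utf1 (0.58) and Tdgf1 (0.30) were higher and Zfp42 (-0.49) and Sox2 (-0.21) lower with both siRNAs than in the control, and the other 4, Pou5f1 among them at 13.51 to 13.76 on all arrays, were not called. Transcripts of lung epithelium, which ES cells are not expected to hold, were present on the 96 h arrays. The airway secretory gene Scgb1a1 read 12.49 and 12.27 with siRNA #1 and 12.83 and 11.95 with siRNA #2 at 96 h, against 12.66 and 12.64 in the control. At 48 h it read 3.71 and 4.03, far below every 96 h array. Over the 17 lung genes measured, the summed signal was 8710 to 9910 with siRNA #1 and 7760 to 12600 with siRNA #2, against 11500 to 11700 in the control and 1700 to 1780 with siRNA #1 at 48 h. Summed endothelial markers (8 genes) ranged from 770 to 869 over the 8 arrays. Summed fibroblast markers (11 genes) were 512 to 517 at 48 h and 545 to 670 at 96 h. Single markers differed between the times, as given with that comparison, and between both siRNAs and the control. In the latter, Twist1 (0.70), Col5a1 (0.56) and Pdgfra (0.22) were higher and Dcn (-0.44) lower among fibroblast markers. Of the endothelial markers Tek (0.64) was higher and Vwf (-0.87) lower, where 24.2% of all genes were called. Whether a group's arrays stem from separate cultures is not labelled, so the p-values reflect no more than array-to-array spread, which may be technical. In these bulk samples, fewer cells of a type and less RNA per cell cannot be told apart.

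At 96 h, Klf2, Klf4 and Klf13 had fallen with the Tet1 siRNAs, and Klf6 and Klf7 had risen. Klf2 was 2.26-fold lower and Klf4 1.90-fold lower in the mean of both siRNAs than in the control, while Klf7 was 1.73-fold and Klf6 1.36-fold higher. In the limma fit over all genes, 2 of the 10 members were higher, 3 were lower and 5 did not pass an adjusted p of 0.05. Of all genes tested in this comparison, 24.2% were called, 12.0% as higher and 12.2% as lower. The median difference was -0.14 over the 10 members and -0.02 over all genes. All 4 siRNA arrays lay on one side of both control arrays in 7 of the 10 members and in 44.3% of all genes.

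**Figure D1:**
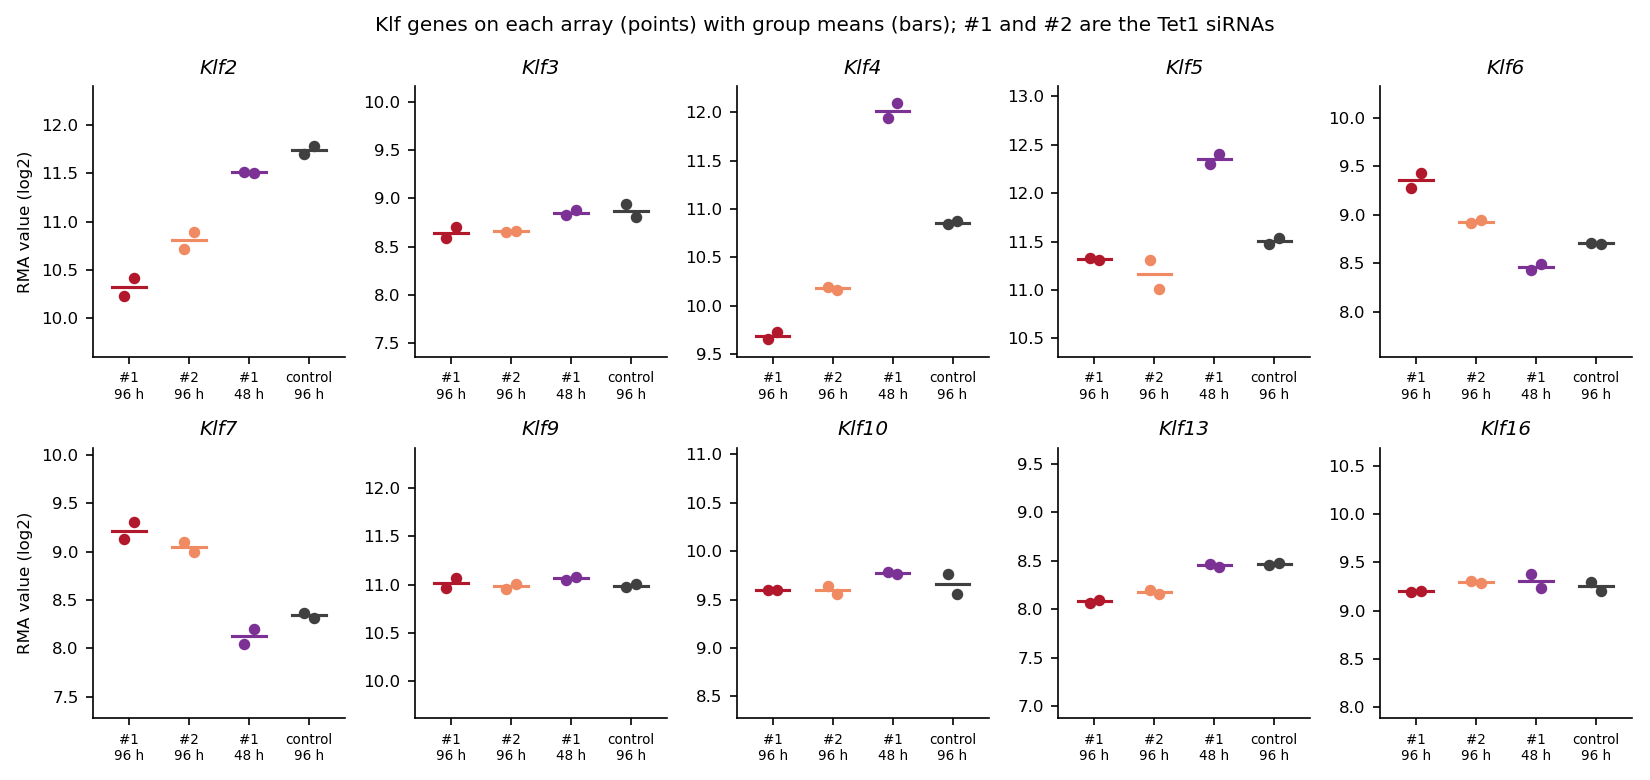
RMA log2 values (vertical axis, with the same span of log2 units in each panel) of the 10 Klf genes on the 8 arrays, by group along the horizontal axis, where points are arrays and bars are means of 2 arrays. Klf2 and Klf4 stand lowest with siRNA #1 at 96 h (10.23 to 10.42 and 9.65 to 9.73), Klf4 and Klf5 stand highest at 48 h, and Klf9, Klf10 and Klf16 are nearly level over the groups.

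Among the ES cell factors, Klf2 (Entrez 16598), also known as the lung Krüppel-like factor and a regulator of endothelial and T cell quiescence, fell the most of the 10 members. It read 10.23 and 10.42 with siRNA #1 and 10.72 and 10.90 with siRNA #2, against 11.71 and 11.78 in the control. All 4 siRNA arrays lay below both control arrays, and those of siRNA #1 lay below those of siRNA #2. The log2 difference of both siRNAs was -1.18 ± 0.082 (SE of the fit, as after each ± below; adjusted p = 6.17e-05, limma). Klf4 (Entrez 16600), one of the original reprogramming factors, read 9.65 and 9.73 with siRNA #1 and 10.20 and 10.17 with siRNA #2, against 10.85 and 10.87 in the control. Its arrays fell in the same order, with no overlap between the 3 groups. Klf4 differed by -0.92 ± 0.069 (adjusted p = 8.36e-05, limma). Klf5 (Entrez 12224), needed for the inner cell mass and trophectoderm of the mouse embryo, read 11.33 and 11.31 with siRNA #1 and 11.31 and 11.01 with siRNA #2, against 11.48 and 11.54 in the control. Its 4 siRNA arrays also lay below both controls, but the shift was small: -0.27, with a 95% interval of -0.47 to -0.06 (adjusted p = 0.064, limma). Klf5 was therefore not called. It was called at an adjusted p of 0.0125 with an intensity trend in limma and 0.018 with the dimmer genes left out. Without single arrays its difference ranged from -0.34 to -0.19. With siRNA #1 alone Klf5 stood at -0.19 (95% interval -0.43 to 0.05; adjusted p = 0.231, limma). With siRNA #2 alone it stood at -0.35 (adjusted p = 0.0587, limma).

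The activators Klf6 and Klf7 went the other way. Klf7 (Entrez 93691), known for its part in the growth of neuronal processes, read 9.13 and 9.30 with siRNA #1 and 9.10 and 9.00 with siRNA #2, against 8.37 and 8.31 in the control. The 2 siRNA groups lay close together, well above both controls. Klf7 differed by 0.79 ± 0.080 (adjusted p = 0.000338, limma). Klf6 (Entrez 23849), a widely expressed factor described as a tumour suppressor, read 9.28 and 9.44 with siRNA #1 and 8.92 and 8.94 with siRNA #2, against 8.71 and 8.70 in the control. Every siRNA array exceeded both controls, by more with siRNA #1. Klf6 differed by 0.44 ± 0.068 (adjusted p = 0.00274, limma).

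The windows upstream of Klf2, Klf4, Klf6 and Klf7, the members with the largest called differences in this comparison, are shown because Tet1 acts on CpG-rich DNA and Klf proteins bind the marked boxes. Each window holds the 250 bases before the gene's start, taken from RefSeq on GRCm38.p6 and printed 5′ to 3′ on the gene's strand. Of the 10 members, 7 matched the promoter table, on 7 chromosomes. Capitals mark CACCC boxes and GC boxes (GGGCGG), each searched on both strands, so that they also read GGGTG and CCGCCC, and overlapping copies are all marked.
Klf2, chr8:72318812-72319061, plus strand: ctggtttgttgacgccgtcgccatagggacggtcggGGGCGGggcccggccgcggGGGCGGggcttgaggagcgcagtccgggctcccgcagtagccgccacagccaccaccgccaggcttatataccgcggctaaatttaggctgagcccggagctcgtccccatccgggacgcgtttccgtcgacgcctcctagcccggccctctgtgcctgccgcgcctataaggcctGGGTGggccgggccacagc
Klf4, chr4:55532476-55532725, minus strand: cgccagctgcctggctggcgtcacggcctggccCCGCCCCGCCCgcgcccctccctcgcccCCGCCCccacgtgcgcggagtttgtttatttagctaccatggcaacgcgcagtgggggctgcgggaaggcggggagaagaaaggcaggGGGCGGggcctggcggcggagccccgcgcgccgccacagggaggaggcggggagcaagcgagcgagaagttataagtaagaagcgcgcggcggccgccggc
Klf6, chr13:5861239-5861488, plus strand: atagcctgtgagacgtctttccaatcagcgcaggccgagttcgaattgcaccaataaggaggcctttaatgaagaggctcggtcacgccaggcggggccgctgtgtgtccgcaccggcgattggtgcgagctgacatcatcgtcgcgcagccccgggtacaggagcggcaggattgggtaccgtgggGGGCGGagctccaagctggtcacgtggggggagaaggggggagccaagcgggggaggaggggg
Klf7, chr1:64121390-64121639, minus strand: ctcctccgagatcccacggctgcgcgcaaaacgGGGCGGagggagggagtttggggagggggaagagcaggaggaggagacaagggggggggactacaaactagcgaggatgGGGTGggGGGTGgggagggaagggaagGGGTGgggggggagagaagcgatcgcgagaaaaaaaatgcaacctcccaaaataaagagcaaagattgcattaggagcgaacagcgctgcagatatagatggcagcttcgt
The Klf4 window held 4 GC boxes and 0 CACCC boxes. The Klf2 window held 2 GC boxes and 1 CACCC box, the Klf6 window 1 GC box, and the Klf7 window 1 GC box and 3 CACCC boxes, all 3 on the opposite strand. Among 32851 RefSeq windows of this length, 52% held a CACCC box and 32.7% a GC box; of the 7 matched members, 5 held the first and 6 the second. CpG pairs numbered 32 in the Klf4 window and 29 in the Klf2 window, above 95.4% and 93.2% of all windows. Klf6 had 21 and Klf7 13, above 83.7% and 68.5%, and the median window had 6. The window of Klf13, which also fell, had 24, above 88% of all windows, with 3 GC boxes and 1 CACCC box. All 7 matched members had more CpG than the median window. Among them were the uncalled Klf3, with 23, and Klf9, with 18, both above the called Klf7. The Stat-type palindrome TTCNNNGAA occurred in 7.02% of all windows and in 1 of the 7, that of Klf9. These matches describe letters in a window and were not tested as binding sites.

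Of the repressors, Klf13 was the one called. Klf13 (Entrez 50794), known as an activator of the chemokine gene Ccl5 in T cells besides its Sin3 binding, read 8.07 and 8.09 with siRNA #1 and 8.20 and 8.16 with siRNA #2, against 8.45 and 8.47 in the control. The siRNA arrays all lay below the controls, by a narrow but even margin. Klf13 differed by -0.33 ± 0.059, 1.26-fold (adjusted p = 0.00499, limma). Klf3 (Entrez 16599), the CtBP-binding repressor known from red blood cells and fat cells, read 8.59 and 8.70 with siRNA #1 and 8.65 and 8.66 with siRNA #2, against 8.94 and 8.81 in the control. It was lower on every siRNA array but just missed the threshold, at -0.22 with an interval of -0.38 to -0.06 (adjusted p = 0.0538, limma). With an intensity trend or with the dimmer genes left out it was called, at adjusted p = 0.0208 and 0.0148 in limma. Without single arrays its difference ranged from -0.29 to -0.15. Klf3 was not called with siRNA #1 alone (-0.23; adjusted p = 0.0798, limma) or with siRNA #2 alone (-0.21; adjusted p = 0.12, limma).

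Klf9, Klf10 and Klf16 overlapped with the control. Klf9 (Entrez 16601), a gene induced by glucocorticoid and thyroid hormones, read 10.97 and 11.07 with siRNA #1 and 10.95 and 11.01 with siRNA #2, against 10.98 and 11.01 in the control. The difference was 0.01 with a 95% interval of -0.14 to 0.16. Klf10 (Entrez 21847), first known as an early gene induced by TGF-beta, read 9.60 and 9.60 with siRNA #1 and 9.64 and 9.56 with siRNA #2, against 9.76 and 9.56 in the control, and its difference of -0.06 had an interval of -0.23 to 0.11. Klf16 (Entrez 118445) read 9.20 and 9.21 with siRNA #1 and 9.31 and 9.29 with siRNA #2, against 9.30 and 9.21 in the control, with an interval of -0.16 to 0.16. These intervals leave room for shifts of up to about the size seen for Klf3.

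Of the 17 lung genes, 3 were lower with both siRNAs than in the control and 0 were higher, with a median difference of -0.09. That is 17.6% called, below the 24.2% of all genes. Those called were Napsa (2.54-fold), Bpifa1 (1.84-fold) and Hopx (1.32-fold), and the summed lung signal was lower on both siRNA #1 arrays than on both control arrays. At 48 h of siRNA #1 Bpifa1 read 3.94 and 3.69, against 8.04 and 7.83 at 96 h. Hopx read 9.87 and 9.78 at 48 h, against 9.69 and 9.73 at 96 h. Napsa read 7.16 and 7.12 at 48 h, against 6.99 and 7.27 at 96 h. Hopx and Napsa thus did not share the low 48 h level of Scgb1a1. A fit with each array's median lung level as a covariate, chosen after the data were seen, called the same members, with Klf2 at -1.21, Klf4 at -0.93, Klf13 at -0.33, Klf6 at 0.43 and Klf7 at 0.79. That median overlapped between the 96 h groups: 7.17 to 7.42 with siRNA #1, 6.78 to 7.48 with siRNA #2 and 7.24 to 7.4 in the control. With levels so close, this covariate could shift these differences only a little, and the part of the lung transcripts in them was not tested.

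Taken singly, each siRNA gave the same directions for the called members. Tet1 siRNA #1 called 5 of the 10, with 2 higher and 3 lower, where 22.8% of all genes were called, 11.6% as higher and 11.2% as lower. It lowered Klf2 by 1.42 ± 0.094, Klf4 by 1.17 ± 0.079 and Klf13 by 0.39 ± 0.069 on the log2 scale, and Klf6 and Klf7 were higher by 0.66 ± 0.079 and 0.88 ± 0.092. Tet1 siRNA #2 called 4 of the 10, with 1 higher and 3 lower, where 15.7% of all genes were called, 8.01% as higher and 7.66% as lower. Its differences were -0.93 ± 0.094 for Klf2, -0.68 ± 0.079 for Klf4, -0.28 ± 0.069 for Klf13 and 0.71 ± 0.092 for Klf7. Klf6 stood at 0.23 with siRNA #2 and was not called (adjusted p = 0.0956, limma). The call of Klf13 with siRNA #2 (adjusted p = 0.0281, limma) was lost when any 1 of the 4 arrays compared was left out, with adjusted p between 0.0761 and 0.126. It was also lost in a fit of these groups alone (0.0787) and with the lung covariate (0.054).

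**Figure D2:**
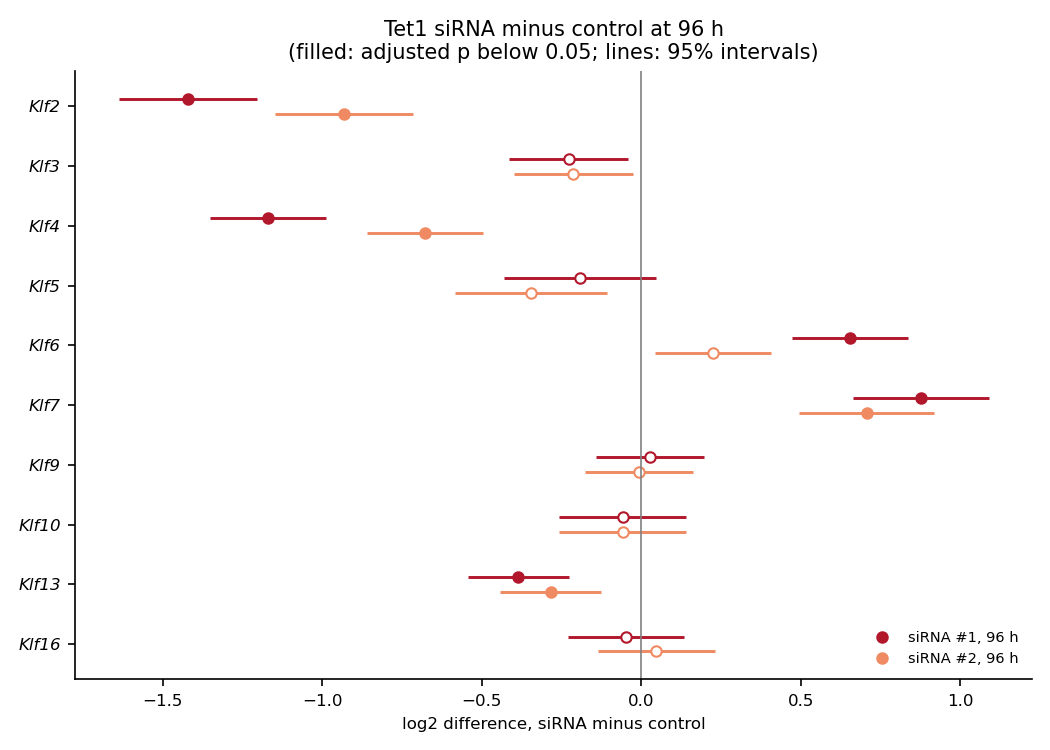
Log2 difference from the control at 96 h (horizontal axis) for each Klf gene with Tet1 siRNA #1 and Tet1 siRNA #2, with 95% intervals from limma and filled points where the adjusted p is below 0.05. Both siRNAs lie on the same side of 0 for Klf2, Klf4, Klf6, Klf7 and Klf13, farther out with siRNA #1 in Klf2 (-1.42 against -0.93), Klf4 (-1.17 against -0.68) and Klf6 (0.66 against 0.23).

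The siRNAs share the control arrays, so they were also compared with each other. Set against siRNA #2, siRNA #1 gave lower Klf2 and Klf4 and higher Klf6 on both arrays, with non-overlapping values. Klf7 (higher), Klf13 and Klf16 (both lower) were also apart, so that 6 of the 10 members showed this, against 41.1% of all genes in either direction. The fit over all genes called 0 of the 10 members, where it called 0.0197% of all genes. At an unadjusted p below 0.05, 3 members would pass, against 10.6% of all genes. Klf2 was lower with siRNA #1 by 0.49 (interval of the difference -0.71 to -0.27; adjusted p = 0.157, limma). Klf4 was lower by 0.49 as well (-0.67 to -0.31; adjusted p = 0.133, limma), and Klf6 was higher by 0.43 (0.25 to 0.61; adjusted p = 0.156, limma). These 3 members passed with an intensity trend in limma, at adjusted p from 0.0045 to 0.018, and with the dimmer genes left out, at 0.0101 to 0.0176. Klf7, which rose with both, differed by 0.17 between them (-0.04 to 0.38), and Klf13 by -0.10 (-0.26 to 0.06).

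The same duplex at 96 h was then set against 48 h, where Klf4 showed the widest difference of any member in the 6 comparisons. Klf4 was 5.01-fold lower at 96 h than at 48 h, Klf2 2.28-fold lower and Klf5 2.05-fold lower, while Klf7 was 2.13-fold and Klf6 1.86-fold higher. The fit called 6 of the 10 members, 2 as higher and 4 as lower, where 37.6% of all genes were called, 19.2% as higher and 18.5% as lower. Without a 48 h control, time in culture and the siRNA cannot be told apart. The same holds for the lung transcripts, most of which were higher on the 96 h arrays than on the 48 h arrays. Of the 17 lung genes, 11 were higher at 96 h than at 48 h and 0 were lower, with a median difference of 1.44, and their part in the Klf differences was not tested. Of the 11 fibroblast markers 5 were higher and 2 lower at 96 h, with Col3a1 at 1.97 and Dcn at 0.92, and of the 8 endothelial markers Tek (0.87) and Cdh5 (0.54) were higher and Pecam1 (-1.06) and Emcn (-0.34) lower. The part of these in the Klf differences was not tested either.

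Klf4 read 9.65 and 9.73 at 96 h, against 11.94 and 12.09 at 48 h, a difference of -2.33 ± 0.079 (adjusted p = 3.88e-06, limma). Klf5 read 11.33 and 11.31 at 96 h, against 12.30 and 12.40 at 48 h, a difference of -1.04 ± 0.10 (adjusted p = 0.000214, limma). Klf2 read 10.23 and 10.42 at 96 h, against 11.51 and 11.51 at 48 h, a difference of -1.19 ± 0.094 (adjusted p = 7.56e-05, limma). The 3 ES cell factors were thus all lower at the later time, with a wide gap between the arrays. Between these times the arrays did not overlap in 9 of the 10 members and in 70.3% of all genes. Klf6 read 9.28 and 9.44 at 96 h, against 8.43 and 8.49 at 48 h, and differed by 0.90 ± 0.079 (adjusted p = 0.00012, limma). Klf7 read 9.13 and 9.30 at 96 h, against 8.05 and 8.20 at 48 h, and differed by 1.09 ± 0.092 (adjusted p = 1e-04, limma). Klf13 read 8.07 and 8.09 at 96 h, against 8.47 and 8.44 at 48 h (-0.37 ± 0.069; adjusted p = 0.00377, limma). The called members thus had the same directions as in the comparison with the control, with Klf5 added to those that fell. Klf3 (-0.21), Klf10 (-0.17), Klf16 (-0.10) and Klf9 (-0.05) were not called. After quantile normalization of the deposited values Klf3 (-0.30, adjusted p = 0.0232) and Klf10 (-0.28, adjusted p = 0.0387) passed in limma.

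The 48 h arrays differed from the 96 h control in a different set of members. Klf4 was 2.23-fold higher at 48 h than in the control (1.16 ± 0.079; adjusted p = 9.72e-05, limma). Klf5 was 1.80-fold higher (0.85 ± 0.10; adjusted p = 0.000721, limma). Klf6 was lower by 0.24 ± 0.079 (adjusted p = 0.0441, limma), and the other 7 did not pass, so that 2 were called as higher and 1 as lower. Of all genes 35.4% were called here, 17.1% as higher and 18.4% as lower, so the share of members called was no larger than that of genes at large. The Klf6 call was lost in a fit of the 2 groups alone (adjusted p = 0.0579), after quantile normalization (0.123), and without any 1 of the control, siRNA #2 or 48 h arrays (0.0603 to 0.167). Klf2 stood at -0.23 (adjusted p = 0.0922, limma) and Klf7 at -0.22 (adjusted p = 0.105, limma). Klf13 differed by -0.01, with an interval of -0.17 to 0.14. In this comparison 13 of the 17 lung genes were lower at 48 h, with a median difference of -1.59, and time is again confounded with the siRNA.

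**Figure D3:**
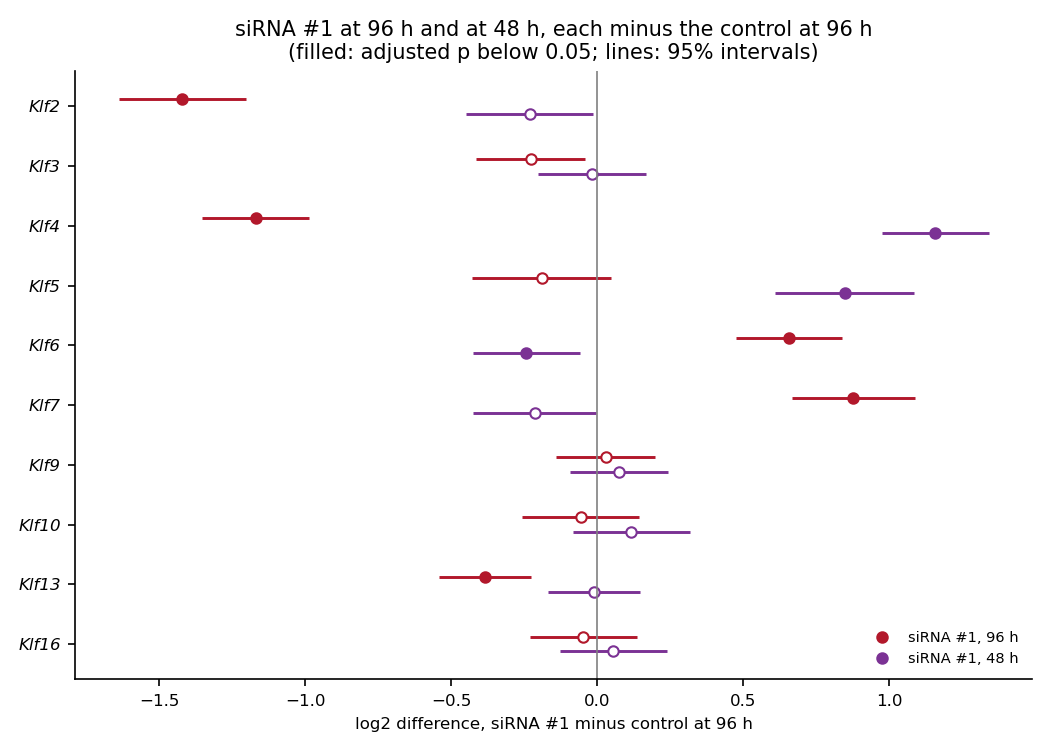
Log2 difference from the control at 96 h (horizontal axis) for each Klf gene with siRNA #1 at 96 h and at 48 h, with 95% intervals from limma and filled points where the adjusted p is below 0.05. Klf4 lies at -1.17 at 96 h and at 1.16 at 48 h, on opposite sides of the control, and Klf6 at 0.66 and -0.24.

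The levels of the 4 groups could be ordered for each called member. For Klf4 the order, from low to high, was siRNA #1 at 96 h, siRNA #2 at 96 h, the control and siRNA #1 at 48 h, and of the neighbours only the 2 siRNAs at 96 h were not separated by the adjusted test. For Klf2 the order was siRNA #1 and siRNA #2 at 96 h, siRNA #1 at 48 h and the control, where that test separated neither the siRNAs at 96 h nor the 48 h arrays from the control. Klf13 had its lowest level with siRNA #1 and the next with siRNA #2, and the 48 h and control levels overlapped. For Klf6 and Klf7 the order ran from the 48 h arrays over the control and siRNA #2 to siRNA #1. Of those neighbours, the test separated the siRNAs at 96 h for neither gene, the 48 h arrays from the control for Klf6 and not Klf7, and siRNA #2 from the control for Klf7 and not Klf6.

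The genes whose values over the 8 arrays ran closest to each called member were found by Euclidean distance between values centred on each gene's mean. For Klf2 these were Epop (distance 0.264), Lrrc2 (0.292) and Nid1 (0.298). For Klf4 they were Pfkp (0.454), Nupr1 (0.473) and Mymx (0.546). Klf6 lay nearest to Cxcl16 (0.171), Dcxr (0.208) and Crip2 (0.216). Klf7 lay nearest to Gpx8 (0.211), Plekha1 (0.246) and Jun (0.251), the last a subunit of the AP-1 transcription factor. Klf13 lay nearest to Bri3 (0.0808), Sap30 (0.0906) and Arhgap30 (0.0951). Sap30 is a subunit of the Sin3 corepressor complex that Klf13 is known to bind, and since this distance grows with a gene's own spread, distances are not compared between members.

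The rest of the family moved in both directions as well. Of 7 further Klf genes 5 were measured, and with both siRNAs 3 fell and 1 rose, with a median of -0.46, where 24.2% of all genes were called. Klf15, a regulator of metabolism in muscle and liver, read 6.57 and 6.60 with siRNA #1 and 7.01 and 7.12 with siRNA #2, against 7.86 and 7.65 in the control. It was 1.91-fold lower (-0.94 ± 0.080; adjusted p = 0.000151, limma), with non-overlapping arrays and the lower values with siRNA #1, as for Klf2 and Klf4. Klf12, a CtBP-binding repressor like Klf3, fell by 0.59 on the log2 scale, and Klf11, a Sin3-binding relative of Klf10, by 0.46. Klf1, the erythroid factor, rose by 0.31, but with siRNA #1 alone it was not called (0.22; adjusted p = 0.0856, limma). It read 5.91 and 5.84 with siRNA #1 and 6.06 and 6.06 with siRNA #2, against 5.71 and 5.61 in the control. These values lie below the array medians of 6.68 to 6.72. Klf17, lower still at 3.92 to 4.19 on the 96 h arrays, stood at -0.16 and was not called (adjusted p = 0.104, limma). The Sp factors, which share the zinc finger type and bind GC boxes, had 28.6% called, near the 24.2% of all genes. Of 7 measured, Sp5, a target of Wnt signalling, rose (0.49) and Sp1 fell (-0.20; adjusted p = 0.0481, limma). The Sp median was 0.06.

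Most genes that Klf2, Klf4 and Klf5 are known to work with or bind in naive ES cells fell, as Klf2 and Klf4 did. Of 15 measured, 12 fell and 1 rose with both siRNAs, with a median of -0.69. Of all genes 24.2% were called in this comparison, 12.0% as higher and 12.2% as lower. Tcl1, an Akt cofactor, differed by -1.48, Tbx3 by -1.36, Tfcp2l1 by -1.28 and Esrrb by -1.11, the last 3 being transcription factors of the naive network. Tbx3 read 7.48 and 7.55 with siRNA #1 and 7.97 and 7.91 with siRNA #2, against 9.09 and 9.08 in the control, the same order of groups as for Klf2 and Klf4. On the route from LIF to Klf4, 3 of 8 genes fell and 1 rose, with a median of -0.22. Socs3, a feedback inhibitor that Stat3 induces, differed by -0.38, Tyk2, a Janus kinase, by -0.29, and Stat3 itself by -0.27, whereas Jak1 stood 0.23 higher. Between times, Socs3 was lower at 96 h than at 48 h of siRNA #1 by 0.97, and 0.48 higher at 48 h than in the control. Those are the same sides as for Klf4, while Stat3 was called in neither comparison (adjusted p = 0.052 and 0.381, limma). Of the 8 route genes, 3 were lower and 1 higher at 96 h than at 48 h, where 37.6% of all genes were called. At 48 h against the control, 5 were higher and 2 lower, where 35.4% of all genes were called.

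Lists of partners, regulators and response classes of the members differed in their share of calls, from 0% for ubiquitin ligase genes to 53.3% for immediate early genes. Of 6 measured corepressor genes, Sin3a (-0.34) and Sap30 (-0.30) fell and the other 4 were not called, with a median of -0.07. Of 7 ubiquitin ligase genes known to act on Klf proteins, limma called 0 at the adjusted threshold and 0 at an unadjusted p below 0.05; Btrc stood at -0.20 and Fbxw7, which is known to target Klf5, at 0.12. Among 15 immediate early genes, the class in which Klf4, Klf6 and Klf10 are often listed, 6 rose and 2 fell, with a median of 0.18. Jun rose by 0.75, Fosl1 by 0.59 and the phosphatase gene Dusp1 by 0.34, and Egr1 fell by 0.29. Of 7 measured TGF-beta response genes 3 rose and 0 fell, with a median of 0.05: Smad7 (0.43), Bambi (0.38) and Skil (0.31), all of which restrain that pathway, while Klf10 stood at -0.06 and was not called. Of 8 glucocorticoid response genes 3 rose and 1 fell, with a median of 0.02: Errfi1 (0.73), Ddit4 (0.49) and the receptor gene Nr3c1 (0.48) rose and the clock gene Per1 (-0.55) fell, and Klf9 stood at 0.01. These medians stand beside -0.02 for all genes and 24.2% called.

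**Figure D4:**
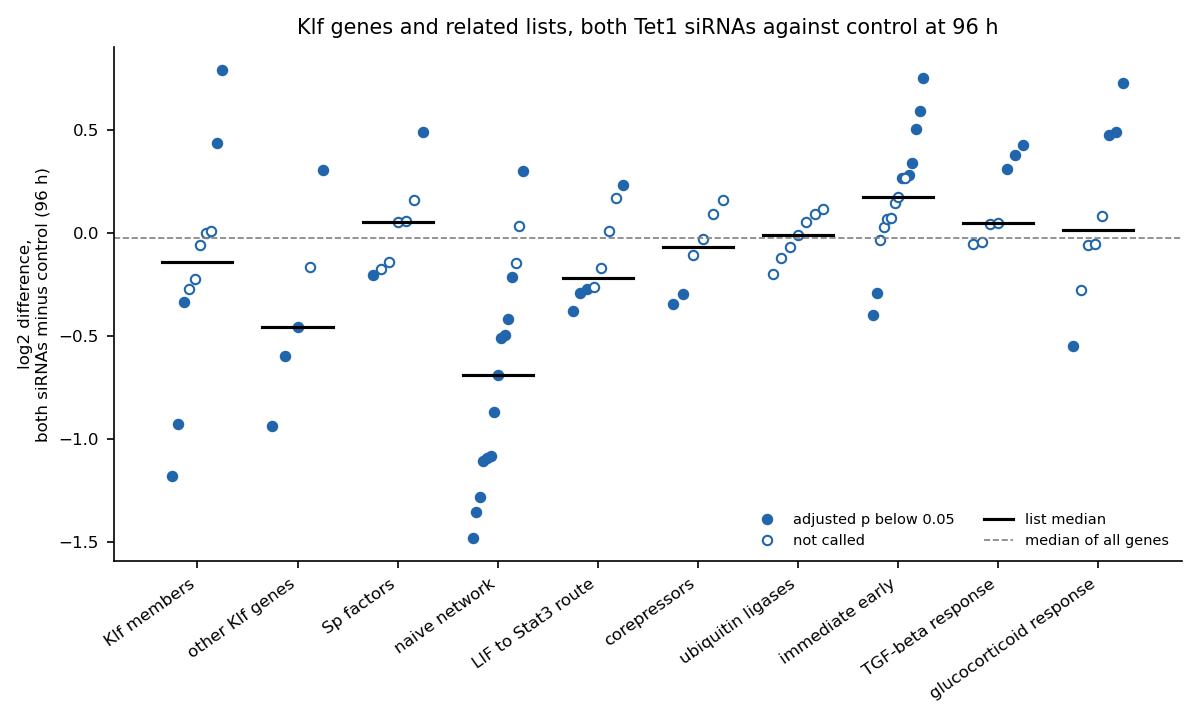
Log2 differences of both Tet1 siRNAs from the control at 96 h (vertical axis) for the 10 Klf members and 9 related gene lists, where each point is a gene, filled if its adjusted p is below 0.05, the bars are list medians and the dashed line is the median of all genes. The Klf members spread from -1.18 to 0.79 around a median of -0.14, while the naive network list lies mostly below 0 with a median of -0.69.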

How the data were processed

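Gene expression was measured on 8 Affymetrix arrays with biotin-labelled total RNA of E14Tg2a cells, per the labels' protocols. The deposited values are log2 expression values made by the authors with RMA, per the submitters' processing notes, and its version is not given in the sources used here. RMA usually brings arrays to one distribution, which hides changes in total RNA per cell, but the upper quartile was 8.76 to 8.79 on the 96 h arrays and 8.66 to 8.72 at 48 h, so whether all arrays were normalized together is unknown. Of 16556 probe sets, 64 controls were left out and 15270 had 1 symbol. For a gene with several, the set with the highest mean was used, which gave 15267 genes.

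With limma 3.58.1 in R 4.3.3, group means were estimated in one fit of the 8 arrays (4 residual and 4.13 prior degrees of freedom). P-values are two-sided, with Benjamini-Hochberg adjustment over all genes, in 6 comparisons, and genes were called below 0.05. The fit was checked on simulated data. The number of arrays limits the precision. Summed marker signals are on the linear scale.

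The Klf members and all gene lists were chosen with earlier results of these data known. All 10 members are named. From each list up to 4 called genes with the smallest adjusted p are named (the 2 smallest where fewer than 2 were called), further Klf genes always, and the 3 nearest genes of each member called in the main comparison. Genes named from the marker lists were chosen after their values were seen. Windows upstream of gene starts and their motifs came from RefSeq tables on GRCm38.p6.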

Additional observations from a re-analysis of the deposited data

Results flagged for a closer look

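In 4 members, the siRNA #1 arrays lay on one side of both control arrays at 96 h and on the other side at 48 h, as they did in 15.6% of all genes. Klf4 differed by -2.33 on the log2 scale between 96 h and 48 h of siRNA #1, with 96 h below and 48 h above the control. Klf5 differed by -1.04, with its arrays on the same sides of the control arrays. Its 96 h difference from the control was not called (-0.19; adjusted p = 0.231, limma). Klf6 differed by 0.898 and Klf7 by 1.09, with 96 h above and 48 h below the control. At 48 h against the control Klf7 was not called (adjusted p = 0.105, limma), and the Klf6 call was lost in several settings. These 4 were picked by that pattern, so their values are a description, and the difference was not tested apart from it. A 48 h control was not analysed here. The lung transcripts that were higher at 96 h than at 48 h move with time, and their part was not tested. With 2 arrays a group, no single array could be tested as standing apart.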

How the results depend on the processing

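Of 880 values recomputed for the members under other settings, 810 kept their direction and side of the threshold, 26 passed it in addition, 15 no longer passed and 29 changed sign, each in a comparison where the member was not called. Arrays with the same replicate number showed no strong shared shift (correlations of deviations between groups from -0.056 to 0.14 over 6 pairs of groups). That cannot settle whether the replicate numbers mark shared cultures, which the labels do not say. With the replicate number as a replicate block, limma called 3403 genes and 5 members for both siRNAs against the control, and Klf6 at 48 h against the control lost its call (adjusted p = 0.051); no other call of a member changed. Leaving out each array in turn gave 2218 to 3328 genes for both siRNAs, 1906 to 3348 for siRNA #1, 1160 to 2043 for siRNA #2, 0 to 3 for siRNA #1 against siRNA #2, 3664 to 5676 for 96 h against 48 h and 3212 to 5344 for 48 h against the control. The main counts were 3700, 3487, 2392, 3, 5748 and 5410. A fit of only the groups compared called 1364 genes for siRNA #2 and 0 between the siRNAs. Between the siRNAs an intensity trend called 124 genes and 3 members, the fit without dim genes 172 genes and 3 members, and the lung covariate, chosen after seeing the data, 0 genes. Without dim genes 7 members were called for siRNA #2 and 5 for 48 h against the control. The causes were not tested, except that fits without an array have fewer samples.

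Changes of sign concerned values near 0. After quantile normalization Klf9 stood at -0.00654 for both siRNAs, Klf10 at -0.00773 between the siRNAs, and Klf13 at 0.0545 and Klf3 at 0.0630 for 48 h against the control. With the lung covariate Klf16 stood at 0.00173 and Klf9 at -0.00102 for both siRNAs, and between the siRNAs Klf10 at -0.00796 and Klf3 at 0.00144. Without single arrays the ranges for both siRNAs were -0.160 to 0.0436 for Klf10, -0.0465 to 0.0459 for Klf16 and -0.0142 to 0.0345 for Klf9. For siRNA #1 they were -0.159 to 0.0441 (Klf10) and -0.0204 to 0.0770 (Klf9), and for siRNA #2 -0.160 to 0.0431 (Klf10) and -0.0371 to 0.0210 (Klf9). Between the siRNAs they were -0.0415 to 0.0436 (Klf10), -0.0737 to 0.0431 (Klf3) and -0.0124 to 0.0850 (Klf9). For 96 h against 48 h Klf9 ranged from -0.0944 to 0.00294, and for 48 h against the control Klf13 from -0.0280 to 0.00218, Klf16 from -0.0161 to 0.127 and Klf3 from -0.0844 to 0.0483. No scanner background was used here, so no detection limit was set.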
